A study of Mus musculus with 6 samples.

Results

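The genes described here encode adhesion proteins of the cell surface: cadherins, protocadherins, claudins, integrins and nectins. They are the rows of the deposited expression table whose symbol begins with Cdh or Cldn and a digit, with Pcdh, Itga, Itgb or Nectin, or with Pvrl and a digit, the older symbol of the nectins. The rule used names and no measured value. It found 38 of the 10989 genes in the table, which lists only genes that reach 80 deposited units in at least 2 libraries. The annotation GENCODE M21 (build mm10) has 160 protein-coding genes with such symbols, of which 37 are in the table. The 38th row, Cldn25, is named Cldnd1 there and is a claudin-like protein. By family the 38 are 8 of 23 annotated cadherins, 1 of 57 clustered protocadherins, 6 of 12 other protocadherins, 5 claudins, 3 of 4 nectins, 7 of 18 integrin alpha subunits and 5 of 9 integrin beta subunits. A further 3 genes match by symbol and are not subunits: Itgb1bp1, Itgb3bp and Itgbl1.

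The RNA came from MPI-II cells, a mouse embryonic stem cell line, at passages 13 to 18. The wild type (WT, DDX5+/+) had 2 libraries and the knockout (KO, DDX5-/-) had 4, each from a separate line. Each KO line was grown from a single clone after a Cas9 nickase and paired guide RNAs had been aimed at the second exon of Ddx5, with selection in G418. Both groups grew on feeder cells, in serum with leukemia inhibitory factor (LIF), the MEK inhibitor PD0325901 and the GSK3 inhibitor CH99021. Ddx5 encodes an RNA helicase of transcription, splicing and microRNA processing, and the comparison asks which genes differ without it. Ddx5 transcript stood at 36433 and 36436 units in WT against 5854, 8450, 12793 and 5659 in the KO (lines 1 to 4, in order here and throughout), or -2.23 log2 (adjusted p = 0.00807 in limma), called whichever library was left out. The labelled cell type matched its markers, since 14 of 14 stem cell markers were measured, with summed levels of 112244 to 180766 units in WT and 136729 to 143146 in KO. Much of the WT spread lay in Dppa5a, at 78894 and 17548 units in WT and 36418 in each KO line. Of the 14, Nanog was called higher (log2 0.89, adjusted p = 0.0154 in limma) and Dnmt3l lower (-0.84, adjusted p = 0.0309). That is 14.3%, beside 17.1% of all genes, and each call was lost without KO line 3.

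Cadherins join like cells through calcium-dependent contacts, and catenins tie their tails to actin. Claudins seal tight junctions, nectins start new contacts beside cadherins, and integrins, pairs of 1 alpha and 1 beta subunit, hold cells to the extracellular matrix. In mouse embryonic stem cells E-cadherin (Cdh1) holds the compact colony together, and integrins with the beta1 subunit (Itgb1) bind laminin and fibronectin.

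Values are normalized scores in deposited units that carry no fixed unit. They show neither the depth nor the total RNA of a library. A log2 change is KO minus WT on the scale log2(units / 14.7 + 1), which understates the change of low genes. Genes count as called where limma gave an adjusted p below 0.05 in a fit over all 10989 genes. The adjusted p-values here come from that fit unless another is named. A fit without WT replicate 1 or 2 holds 1 WT library, so its spread comes from the KO lines alone. It does not cover spread between WT libraries, and a call kept or gained there is not evidence that the change holds. Feeder cells are fibroblasts, and fibroblast markers fell with the loss of Ddx5: 18 of 20 measured were called lower, with a summed level of 45172 and 21872 units in WT replicates 1 and 2 and of 3084 to 5823 in the KO lines. None was at 0 except Col6a3 in KO line 4. Every fall reported for an adhesion gene stands beside these lower markers, whose part in it was not tested. In such bulk libraries fewer cells of a type and less RNA per cell cannot be told apart. Genes of chromosome 8, which carries 4 of the 38, also differed between libraries as a block, with a median of -0.34 and -0.32 log2 around the 6-library mean in WT replicate 1 and KO line 1 and of 0.07 to 0.22 in the other 4. Genes of chromosome 6, which carries none of the 38, stood higher in KO line 4 (0.42). Between the 2 WT libraries, 8 of the 38 genes differed more than 2-fold (21.1%, WT replicate 1 the higher in 5), against 10.8% of all genes. WT replicate 2 lists 131 genes at 0, against 13 to 19 in each of the other 5 libraries.

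Of the 38 genes, 4 rose and 3 fell in the KO lines, and 31 did not pass. Cdh3, Cdh12, Cldn6 and Pvrl2 rose, and Pvrl3, Itga9 and Pcdh7 fell. The called share was 18.4%, against 17.1% of all genes (9.75% higher and 7.34% lower), so these genes were called about as often as genes in general. The KO and WT libraries did not overlap for 17 of the 38 (44.7%, 7 higher and 10 lower), against 43.7% of all genes (24.1% higher and 19.6% lower). Cdh12, Cldn6 and Itgb3 reached the 80 units of the entry rule only in KO, and Itga9 and Pcdh10 only in WT. Each entered the table through the group where it is high, so its lack of overlap or its call is partly set by that rule. Fibroblast markers such as Col6a1 and Col6a3 likewise entered through WT alone. The median log2 change was -0.07, against 0.04 over all genes, within a range from -2.53 for Pcdh10 to 2.49 for Cdh12.

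**Figure D1:**
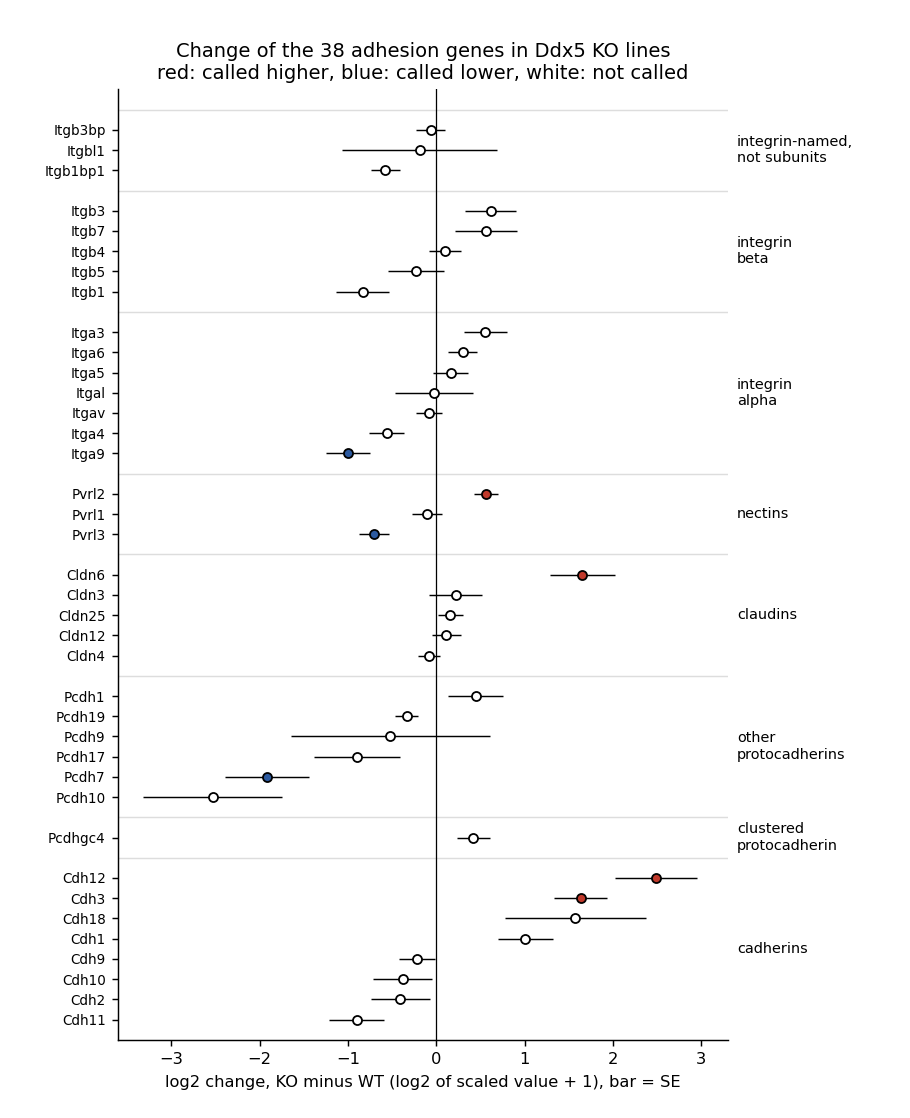
Log2 change of each of the 38 adhesion genes between 4 KO lines and 2 WT libraries (x axis, KO minus WT), grouped by family, with bars for the standard error. Red and blue points are the 4 called higher and the 3 called lower, and the 31 white points did not pass.

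E-cadherin was the most abundant of the 38 genes and stood higher in each KO line than in either WT library, but did not pass the test. Cdh1, on chromosome 8 (106603351 to 106670246, build mm10), lay at 7348 and 9102 units in WT against 9687, 17594, 20737 and 20737 in KO lines 1 to 4. KO line 1 lay just above WT replicate 2, and the other 3 lines lay far above both. By mean level Cdh1 was 89th of all genes, and values this high fall on coarse shared steps, as the tie of lines 3 and 4 shows. Its log2 change was 1.01 (SE 0.310, adjusted p = 0.0647). It passed without KO line 1 (1.26, adjusted p = 0.01) and failed when any of the other 5 libraries was omitted (adjusted p 0.121 to 0.181).

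P-cadherin rose. Cdh3, the cadherin of placenta and basal epithelia, lies 46054 bases before Cdh1 on the same strand of chromosome 8 (106510891 to 106557297). It stood at 92 and 190 units in WT against 342, 557, 499 and 406 in the KO lines. All 4 lines lay above both WT libraries, which themselves differed about 2-fold. The mean went from 141 ± 69.3 (SD, n = 2) to 451 ± 95.6 units (SD, n = 4), or 1.63 log2 (SE 0.298, adjusted p = 0.0159). The call was lost without KO line 2 (adjusted p = 0.0546) or KO line 3 (0.0553) and held in the other 4 fits.

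The 2 neighbours shared their direction within each level of chromosome 8. Between WT replicate 1 and KO line 1, both with the lower level, Cdh1 differed by 0.40 log2 and Cdh3 by 1.74. Between WT replicate 2 and KO lines 2 to 4, with the higher level, the differences were 1.11 and 1.28. With each library centred on the median of the same chromosome, Cdh1 passed (log2 0.81, adjusted p = 0.0196) and Cdh3 still did (1.43, adjusted p = 0.00434), in a fit that called 20.9% of all genes.

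**Figure D2:**
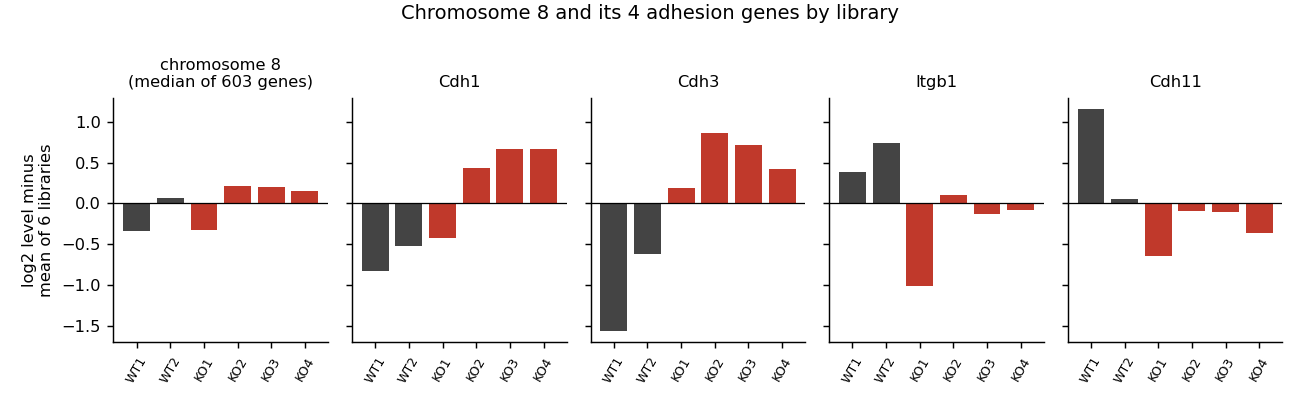
Log2 level minus the mean of the 6 libraries (y axis) for the median of 603 genes of chromosome 8 and for its 4 adhesion genes, in WT (grey) and KO (red) libraries. WT replicate 1 and KO line 1 stand low for the chromosome (-0.34 and -0.32), while Cdh1 and Cdh3 are higher and Itgb1 lower in KO at both levels.

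N-cadherin and Cdh11, known from mesenchymal cells, did not pass. N-cadherin, Cdh2, lay at 292 and 113 units in WT against 146, 132, 129 and 132 in the KO lines. The KO lines lay between the 2 WT libraries, so the sign of the change (-0.41, adjusted p = 0.416) rested on WT replicate 1. Without that library it was 0.23, and without WT replicate 2 it was -1.04. Cdh11, the cadherin of osteoblasts and other mesenchymal cells, chosen after its values were seen, lay at 886 and 404 units in WT against 245, 365, 360 and 300 in KO. All KO lines lay below both WT libraries (log2 -0.90, adjusted p = 0.0863). With WT replicate 2 alone as WT the change was -0.35, and with WT replicate 1 alone it was -1.46. For Cdh2 and Cdh11, WT replicate 1, the higher of the WT libraries, was also the one with more of the fibroblast markers, and the part of these markers in the result was not tested.

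The remaining 4 cadherins belong to the type II group of the nervous system and lie on chromosome 15. Both WT libraries list Cdh12 at 0, and the KO lines hold 84, 104, 60 and 38 units. It was called (adjusted p = 0.0168), in a range of the table near its floor. Its fitted log2 change ran from 0.96 with a pseudocount of 5 to 3.34 with 0.5. Only KO lines 1 and 2 reached 80 units, so Cdh12 entered the table through the group where it is high. The call was lost without KO line 1 (adjusted p = 0.0513), KO line 2 (0.0767) or KO line 3 (0.0621), and with quantile normalization (0.0543). Its neighbour Cdh18 was at 128 and 0 units in WT against 97 to 140 in KO, so KO overlapped with WT replicate 1, and the 0 is in the library with most genes at 0 (log2 1.57, adjusted p = 0.202). The change of Cdh18 was 3.21 without WT replicate 1 and -0.07 without WT replicate 2. Cdh9 and Cdh10 stayed between 44 and 148 units in the 6 libraries and did not pass (log2 -0.22 and -0.38).

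Compared per kilobase of the longest annotated transcript, E-cadherin made up most of the cadherin level in each library. Its share of the summed level of the 8 cadherins was 82.6% and 90.7% in WT and 89.1%, 92.1%, 93.5% and 94.7% in KO. KO line 1 lay below WT replicate 2, so the groups overlapped. The difference between the means of 86.7% and 92.4% did not pass an exact two-sided permutation test of the 6 libraries (p = 0.133, adjusted p = 0.222 over 5 such shares, where 2 against 4 cannot give a p below 0.0667).

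Of the 6 protocadherins outside the clusters, Pcdh7 fell, none rose and 5 did not pass, with a median log2 change of -0.71. These proteins are cadherin relatives best known in the developing brain. Pcdh7 stood at 383 and 294 units in WT against 129, 28, 97 and 94 in the KO lines. All 4 lines lay far below the lower WT library. The mean fell from 338.5 ± 62.9 (SD, n = 2) to 87.0 ± 42.4 units (SD, n = 4), or -1.92 log2 (SE 0.472, adjusted p = 0.0365). It passed without KO line 1 (0.0422) or KO line 2 (0.0317), and was lost without any of the other 4 libraries (0.0638 to 0.0971).

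Pcdh10 had the most negative estimate of the 38 and did not pass. It lay at 222 and 113 units in WT, at 36 and 60 in KO lines 1 and 2, and was listed at 0 in KO lines 3 and 4 (log2 -2.53, SE 0.786, adjusted p = 0.0665). It passed with quantile normalization (adjusted p = 0.0428) and with a pseudocount of 5 (0.0340). Pcdh19, the most abundant of the 6, went from 525 and 432 units to 344 to 394, without overlap (log2 -0.34, adjusted p = 0.110). Pcdh17 was at 144 and 100 units in WT against 33 to 121 in KO, and Pcdh1 at 84 and 47 in WT and 70 to 118 in KO. Pcdh9 was at 154 and, in the library with most zeros, 2 units in WT and at 3, 3, 46 and 84 in KO, and its change turned from -0.52 to 1.15 without WT replicate 1 (adjusted p = 0.479).

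Of the clustered protocadherins the table holds Pcdhgc4, at 1063 and 646 units in WT against 1096, 1088, 1172 and 1099 in the KO lines. The genes of the gamma cluster share their last exons, so how reads were split between them is uncertain. KO lay just above WT replicate 1 and well above WT replicate 2 (log2 0.42, adjusted p = 0.154). The change was 0.77 without WT replicate 1 and 0.07 without WT replicate 2.

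Genes that work with or regulate protocadherins gave 2 higher and 1 lower of 10 measured, where 9.75% of all genes were higher and 7.34% lower. Fjx1, a secreted relative of the Fat and Dachsous regulator four-jointed, fell from 188 and 270 units to 37, 24, 36 and 24 (log2 -2.43, SE 0.301, adjusted p = 0.0062). Its groups lay far apart and the call held whichever library was left out. Fjx1 reached 80 units only in WT, and so entered the table through the group where it is high. Celsr3, a cadherin of planar polarity, rose from 124 and 156 to 209 to 268 units (0.73, adjusted p = 0.0331). Smchd1, a chromatin protein that represses the protocadherin clusters, rose from 1194 and 1182 to 1531 to 1951 units (0.49, adjusted p = 0.0364). The call of Celsr3 was lost when any of the KO lines was omitted (adjusted p up to 0.109). That of Smchd1 held without KO line 4 (0.0407) and was lost without any other KO line (up to 0.103).

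**Figure D3:**
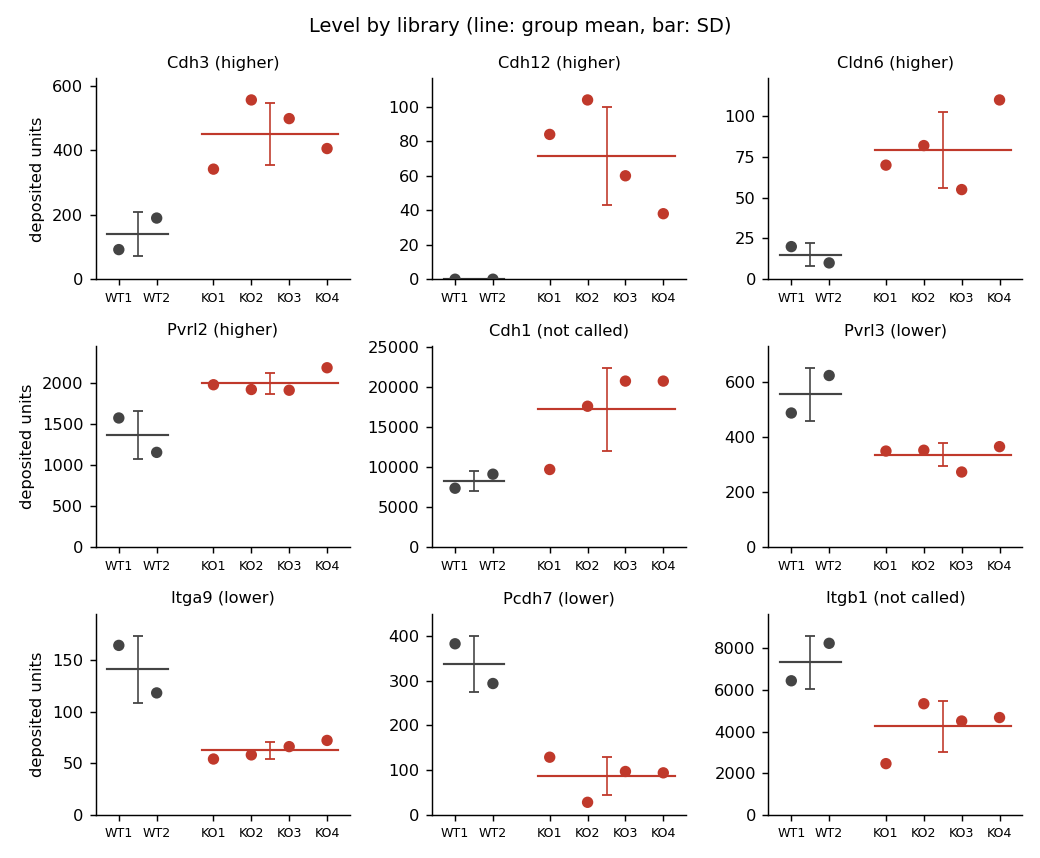
Deposited units (y axis, from 0) of the 7 called genes and of Cdh1 and Itgb1 in each library, with lines for the group means and bars for the SD (WT n = 2, KO n = 4). In each of the 9 panels the KO lines do not overlap with WT, and for Cdh1 KO line 1 (9687) comes nearest to WT (9102).

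Among claudins Cldn6 rose and the other 4 did not pass. Cldn6 is a claudin of early embryonic epithelia. It stood at 20 and 10 units in WT against 70, 82, 55 and 110 in the KO lines. All KO lines lay above both WT libraries, at levels near the floor of the table. Cldn6 reached 80 units in KO lines 2 and 4 only, and entered the table through them. The mean was 15.0 ± 7.07 (SD, n = 2) in WT and 79.3 ± 23.3 units (SD, n = 4) in KO, or 1.65 log2 (SE 0.368, adjusted p = 0.0272). The call was lost without any of the KO lines (adjusted p 0.0608 to 0.0982) and also with quantile normalization (0.91, adjusted p = 0.151).

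Cldn4, the most abundant claudin, lay at 1790 and 1484 units in WT against 1387 to 1656 in KO, with overlap (log2 -0.08, adjusted p = 0.665). Cldn3, which forms barriers in simple epithelia, was at 99 and 58 units in WT and 65 to 110 in KO. Cldn12 lay between 456 and 662 units and Cldn25 between 365 and 489 in the 6 libraries. These 4 had log2 changes from -0.08 to 0.22. Per kilobase, Cldn4 took 71.5% and 69.0% of the claudin level in WT and 62.7% to 67.6% in KO. The groups did not overlap (p = 0.0667 by an exact permutation test, two-sided, the smallest p this design allows, adjusted p = 0.167).

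The nectins split. Pvrl2 (nectin-2) rose and Pvrl3 (nectin-3) fell, while Pvrl1 (nectin-1) did not pass. Nectins bind across the cell border, often one kind to another, and hold the actin-linked protein afadin inside. Pvrl2 lay at 1572 and 1153 units in WT against 1977, 1919, 1910 and 2184 in KO. The mean went from 1362.5 ± 296 (SD, n = 2) to 1997.5 ± 128 units (SD, n = 4), or 0.56 log2 (SE 0.139, adjusted p = 0.0365). The KO lines lay close together and above both WT libraries, which were further apart.

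Pvrl3 went the other way. It lay at 486 and 622 units in WT against 348, 351, 272 and 364 in the KO lines, all below WT. The log2 change was -0.70 (SE 0.167, adjusted p = 0.0324). Pvrl1 lay at 738 and 794 units in WT against 553 to 844 in KO (log2 -0.11, adjusted p = 0.688). Per kilobase, Pvrl2 made up 75.8% and 66.9% of the nectin level in WT and 79.6% to 84.2% in KO (exact permutation p = 0.0667, two-sided, the smallest possible, adjusted p = 0.167).

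Both nectin calls leaned on single libraries. The call of Pvrl2 was lost without any of the KO lines, and its log2 change was 0.78 without WT replicate 1. Pvrl3 passed without KO line 4 (adjusted p = 0.0485) and not without any other KO line. Afadin itself (Mllt4), chosen after its values were seen, lay at 2066 and 1947 units in WT against 1584 to 2282 in KO (log2 -0.04, adjusted p = 0.848).

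The sequence before a RefSeq start of transcription is shown for 4 of the 7 called genes. These were picked because they hold, or as the opposite nectin lack, the E-box letters CAGGTG, which the repressors Snail and Zeb read in junction genes. Of the 6 called genes with a match, 3 hold the letters. Cdh12 (higher) and Pcdh7 (lower), matched and not shown, lack them. Promoters came from RefSeq (build GRCm38.p6), 27 of the 38 genes matched, Cdh1 and Cdh3 not among them, and each window is the 250 bases before a start. Searched on both strands, CAGGTG stood in 6 of 31 such windows of these genes, against 17.2% of 32851 promoters. GGAATG, read by TEAD factors, stood in 4 and TGANTCA, read by AP-1, in 1 of the 31, against 12.6% and 6.75%. The windows are chr17:23679115-23679364 (plus strand) for Cldn6, chr7:19749574-19749823 (minus strand) for Pvrl2, chr9:118711442-118711691 (plus strand) for Itga9 and chr16:46496968-46497217 (minus strand) for Pvrl3. Each runs 5′ to 3′ along its gene, with CAGGTG in capitals.
Cldn6: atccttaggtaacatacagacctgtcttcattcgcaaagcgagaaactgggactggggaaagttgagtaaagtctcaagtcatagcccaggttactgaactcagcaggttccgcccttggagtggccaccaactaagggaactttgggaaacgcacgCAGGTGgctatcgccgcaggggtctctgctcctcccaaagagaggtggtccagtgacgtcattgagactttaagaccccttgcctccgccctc
Pvrl2: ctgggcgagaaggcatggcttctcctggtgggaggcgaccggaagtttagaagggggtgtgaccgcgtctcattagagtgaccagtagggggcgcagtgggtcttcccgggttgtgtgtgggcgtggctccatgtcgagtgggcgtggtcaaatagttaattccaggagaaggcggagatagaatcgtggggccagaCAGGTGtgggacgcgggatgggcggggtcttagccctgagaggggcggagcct
Itga9: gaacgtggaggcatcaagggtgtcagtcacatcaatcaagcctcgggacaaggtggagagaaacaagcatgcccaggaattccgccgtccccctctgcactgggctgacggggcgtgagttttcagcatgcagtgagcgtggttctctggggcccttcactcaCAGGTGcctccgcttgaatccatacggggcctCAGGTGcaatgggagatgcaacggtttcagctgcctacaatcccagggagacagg
Pvrl3: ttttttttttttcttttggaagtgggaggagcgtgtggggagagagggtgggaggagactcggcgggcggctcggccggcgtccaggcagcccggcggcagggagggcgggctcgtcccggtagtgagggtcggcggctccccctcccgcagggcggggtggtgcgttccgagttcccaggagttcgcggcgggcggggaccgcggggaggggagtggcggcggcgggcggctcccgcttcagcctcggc
The E-box letters begin 93 bases before the RefSeq start in Cldn6, 53 in Pvrl2, and 87 and 55 in Itga9, and are not in the Pvrl3 window. By GENCODE, the windows of Pvrl2, Itga9 and Pvrl3 lie inside longer genes, and that of Cldn6 runs past the first base of its gene (23679249). The Itga9 window lies deep in its gene, far from the first base (118606690), and those of Pvrl2 and Pvrl3 lie near theirs. The E-box letters of Cldn6, Pvrl2 and Itga9 thus lie within the genes as GENCODE gives them. Genes called higher (Cldn6, Pvrl2) and lower (Itga9) both held them, and a match is not evidence of binding. Zeb2, which reads this motif, fell from 142 and 99 units to 35, 27, 24 and 24 (log2 -1.67, adjusted p = 0.0187). That call was lost without KO line 2 (0.0653) or KO line 3 (0.0616), and Zeb2 reached 80 units, and so entered the table, only in WT. Zeb1, the more abundant Zeb repressor, chosen after its values were seen, did not pass. It lay at 476 and 408 units in WT against 399 to 571 in KO (log2 0.14, adjusted p = 0.579). Fibroblasts express Zeb2 too, the fibroblast markers were lower in the same lines, and their part in the fall was not tested.

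Integrin beta1 was the most abundant integrin gene and lay lower in each KO line than in WT, without passing the test. Itgb1 pairs with most alpha subunits measured here. It lies on chromosome 8 (128685654 to 128733200) and stood at 6438 and 8238 units in WT against 2458, 5335, 4505 and 4672 in the KO lines. KO line 1 was lowest, and the other 3 lines lay close together below both WT libraries. The log2 change was -0.83 (SE 0.30, adjusted p = 0.0954). It passed without KO line 1 (-0.59, adjusted p = 0.0483) and in none of the other 5 fits (0.112 to 0.314).

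The lower level of Itgb1 was found on both sides of the chromosome 8 split. The difference was -1.38 log2 between KO line 1 and WT replicate 1 and -0.77 between KO lines 2 to 4 and WT replicate 2. With chromosome-median centring it passed (-1.03, adjusted p = 0.00634). The 4 other beta subunits did not pass. Itgb5 and Itgb3, which pair with alpha-v, lay at 791 and 844 units in WT against 404 to 948 in KO (log2 -0.23), and at 52 and 78 against 86 to 148 (0.62, no overlap, adjusted p = 0.174). Itgb4, the partner of alpha6 in hemidesmosomes, was at 134 and 176 units against 156 to 184, and Itgb7, of lymphocyte integrins, at 78 and 182 against 136 to 252. In limma 1 of these 5 subunits had an unadjusted p below 0.05, and none was called.

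Per kilobase, Itgb1 made up 84.9% and 85.5% of the beta subunit level in WT and 62.3%, 79.6%, 77.5% and 82.5% in KO. The KO share was lower in each line, by most in line 1. The exact permutation p was 0.200 (two-sided, adjusted p = 0.250), so this difference did not pass.

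Among alpha subunits, Itga9 fell and the other 6 did not pass. Itga9 pairs with beta1 and binds tenascin. It lay at 164 and 118 units in WT against 54, 58, 66 and 72 in the KO lines. The KO lines lay close together and below both WT libraries. Itga9 reached 80 units in WT alone, and entered the table through the group where it is high. The mean went from 141 ± 32.5 (SD, n = 2) to 62.5 ± 8.06 units (SD, n = 4), or -1.0 log2 (SE 0.248, adjusted p = 0.0369). The call was lost without any of the KO lines.

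Itga4, which also pairs with beta1 and is known from blood cells, lay at 236 and 342 units in WT against 158 to 208 in KO without overlap (log2 -0.56, adjusted p = 0.0876). Omitting WT replicate 1 gave a change of -0.82. Itga6, the laminin-binding subunit used as a stem cell marker and the most abundant alpha subunit, lay at 1750 and 1922 units in WT against 2382, 1902, 2047 and 2786 in KO. KO line 2 lay below WT replicate 2, so the groups overlapped (log2 0.30, adjusted p = 0.230). Itga3, another laminin receptor, lay at 347 and 485 units in WT against 466, 622, 564 and 838 in KO (0.55, adjusted p = 0.150). Itga5, the fibronectin receptor subunit, had 1341 and 1267 units in WT and 1220 to 2010 in KO (0.16). Itgav, the shared partner of several beta subunits, lay between 859 and 904 units in 5 libraries and at 662 in KO line 4 (-0.09). Itgal, of leukocytes, was at 57 and 194 units in WT and 72 to 136 in KO.

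The 3 genes that only share the name gave no call. Itgb1bp1, a protein that binds the beta1 tail and restrains integrin activation, lay at 239 and 227 units in WT against 162, 136, 138 and 172 in KO. The groups did not overlap, and the change just missed the threshold (log2 -0.58, SE 0.166, adjusted p = 0.0545). Itgb3bp, a centromere protein, stayed between 176 and 230 units. Itgbl1, a secreted integrin-like protein of mesenchymal cells, lay at 312 and 13 units in WT against 97, 49, 76 and 60 in KO. Its log2 change was 1.59 without WT replicate 1 and -1.97 without WT replicate 2, so its direction rested on which WT library was used. Its low value is in WT replicate 2, the library with most genes at 0.

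**Figure D4:**
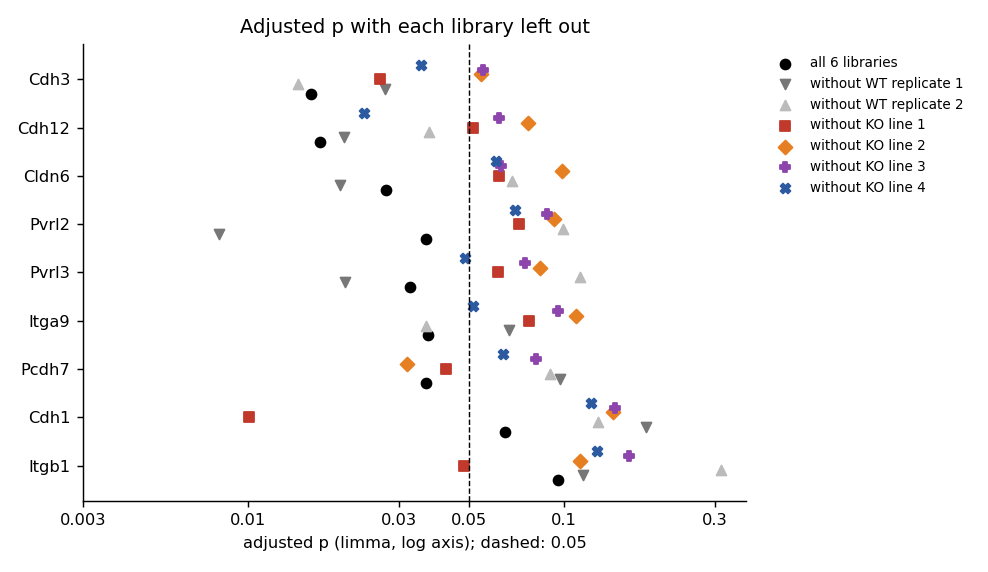
Adjusted p from limma (x axis, log scale, dashed line at 0.05) for the 7 called genes and for Cdh1 and Itgb1, with all 6 libraries (black) and with each library left out. For each of the 7 called genes at least 2 of the 6 left-out fits lie right of the line, and Cdh1 and Itgb1 lie left of it without KO line 1.

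The number of calls depended on which library was absent, for these genes as for all. Counts without WT replicate 1 or 2 are not given, since those fits hold 1 WT library and do not measure the spread between WT libraries. Without KO line 1, 2 of the 38 were higher and 2 lower (11.1% of all genes were called), and without KO line 4, 2 were higher and 1 lower (13.1%). Leaving out KO line 2 left 0 higher and Pcdh7 lower (4.3% of all genes), and leaving out KO line 3 left 0 in either direction (5.21%). When limma estimated the spread separately by group, 0 of the 38 passed, 8 had an unadjusted p below 0.05, and 1.77% of all genes were called. A block for the replicate number also left 0 of the 38, 9 with an unadjusted p below 0.05, and 0.182% of all genes. KO lines 3 and 4 share their number with no WT library, so that fit rests on numbers 1 and 2. Its few calls cannot decide whether the others hold.

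Grouped by the tissue they are typical of, members of epithelia and stem cells gave 2 higher of 7 (Cdh3 and Cldn6), none lower, and a median log2 change of 0.30. Members typical of fibroblasts gave 0 of 7 called in limma, with 1 at an unadjusted p below 0.05 and a median of -0.19. Over all genes 17.1% were called and the median was 0.04. The first group is Cdh1, Cdh3, Cldn3, Cldn4, Cldn6, Itga6 and Itgb4, and the second is Cdh2, Cdh11, Itga5, Itgav, Itgb3, Itgb5 and Itgbl1. The listed fibroblast markers had a median of -2.91, and the difference between these lists was not tested.

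The partners of these genes inside the cell moved in single genes. Of 10 adherens junction partners, Arvcf rose and Vcl fell, a called share of 20.0% beside 17.1% of all genes. Arvcf, a catenin of the p120 family, went from 822 and 794 units to 1431, 1580, 1538 and 1640 (log2 0.92, SE 0.0955, adjusted p = 0.00380), and was called whichever library was omitted. Its relatives Ctnnd1 (p120-catenin) and Ctnnd2, chosen after their values were seen, lay lower without overlap and did not pass. Ctnnd1 went from 4302 and 3385 to 2832 to 3110 units (-0.36, adjusted p = 0.0657), and Ctnnd2 from 176 and 180 to 92 to 146 (-0.46, adjusted p = 0.182). Vinculin (Vcl), which anchors junctions and focal adhesions to actin, went from 4828 and 3508 to 1822 to 2835 units (-0.97, adjusted p = 0.0252). This held without KO line 4 (0.0158) and was lost without any other KO line (0.0553 to 0.0770). Beta-catenin (Ctnnb1), chosen after its values were seen, lay at 11431 and 12197 units in WT against 11431 to 17574 in KO (0.25, adjusted p = 0.296), and alpha-catenin (Ctnna1), chosen likewise, at 13542 and 10920 in WT and 12772 to 14340 in KO (0.13).

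Among 14 tight junction partners, 2 rose and none fell, with a median of 0.25. The called share of 14.3% was near the 17.1% of all genes. Tjp1 (ZO-1), the scaffold that claudins bind, went from 1996 and 1842 units to 3900, 4138, 3790 and 4232. The KO lines lay close together, far above both WT libraries (log2 1.06, SE 0.0882, adjusted p = 0.00267), and the call held whichever library was omitted. Its relative Tjp3 rose from 36 and 46 units to 114, 118, 120 and 187 (1.40, adjusted p = 0.0183). That call was lost without KO line 2 (0.0622) or KO line 3 (0.0606), and Tjp3 reached 80 units, and so entered the table, only in KO. Of 7 desmosome genes none was called in limma, with 3 at an unadjusted p below 0.05. The desmosomal cadherin Dsc3, at 66 and 0 units in WT and 110 to 140 in KO, and plakophilin Pkp2, at 268 and 595 in WT and 609 to 1198 in KO, both chosen after their values were seen, did not overlap between groups and missed the threshold (both adjusted p = 0.061). Perp, the other desmosome gene with an unadjusted p below 0.05, chosen likewise, went the other way. It lay at 238 and 216 units in WT and 89 to 170 in KO, without overlap (-0.78, adjusted p = 0.0696). The 0 of Dsc3 is in WT replicate 2, which lists 131 genes at 0, and Dsc3 reached 80 units, and so entered the table, only in KO.

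On the integrin side, 3 of 18 focal adhesion adaptors fell and 1 rose, with a median of -0.06 and a called share of 22.2% beside 17.1% of all genes. Zyxin (Zyx) fell from 1076 and 622 units to 84, 80, 109 and 312 (log2 -2.58, SE 0.520, adjusted p = 0.0205). Its highest KO value was in line 4, where the median of its chromosome 6 stood higher (0.42 log2). The part of that level in this value was not tested. Parva, a link from integrins to actin, went from 370 and 205 to 132 to 157 units (-0.90, adjusted p = 0.0450). Tns3, a tensin that binds integrin tails, chosen after its values were seen, fell from 4106 and 3384 to 2172 to 2515 units (-0.68, adjusted p = 0.0120), a call lost without KO line 2 (0.0504). Bcar1, a docking protein of integrin signalling on chromosome 8, rose from 595 and 608 to 780, 1184, 1344 and 1448 units (0.93, adjusted p = 0.0407). The call of Zyx was lost without WT replicate 1 (0.0631), KO line 2 (0.0617) or KO line 3 (0.0635). Parva was lost without any of the KO lines (up to 0.115). Bcar1 passed without KO line 1 (0.0114) and was lost without any other KO line (up to 0.105). Over the list, 0 adaptors were lower without KO line 2, where 4.3% of all genes were called, and 2 without KO line 4, where 13.1% were.

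Of the extracellular ligands of integrins, 9 of 26 fell and 1, Lama5, rose, a called share of 38.5% beside 17.1% of all genes, with a median of -0.48. Col1a2, a chain of type I collagen, changed by -4.30 log2, the glycoprotein Thbs1 by -4.19 and tenascin C (Tnc), a ligand of alpha9 integrin, by -3.83. Tnc went from 2472 and 1198 units to 186, 56, 123 and 98. The calls of these 3 held whichever library was left out, and 8 to 10 of the 26 were lower in those fits. In the same fits 0 or 1 was higher, except for 4 without WT replicate 1, where 30.1% of all genes were called. The rise of Lama5, a laminin chain (0.44, adjusted p = 0.0395), held without KO line 4 (0.0340) and was lost without any other KO line (up to 0.116). Of the 9 lower ligands 5 are also on the list of fibroblast markers. That list shares 5 genes with this one (19.2% of the 26 ligands and 25.0% of the 20 markers). Among the other 21 ligands 4 fell: Tnc, Thbs1, Lama4 and Thbs2. Lama4 and Thbs2 reached 80 units only in WT, and so entered the table through the group where they are high. Their calls, and with them the called share of the list, are thus partly set by the entry rule. Fibronectin (Fn1), chosen after its values were seen, lay at 36452 units in 5 libraries and at 29855 in WT replicate 2. The part of the feeder cells in these falls, and in those of Vcl, Zyx, Parva and Tns3, was not tested.

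**Figure D5:**
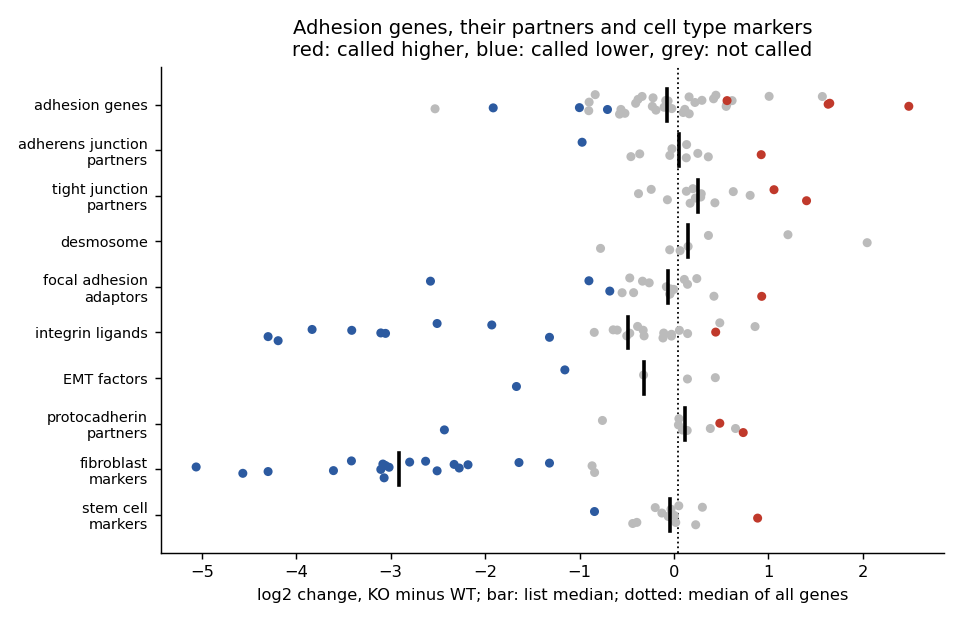
Log2 change (x axis, KO minus WT) of the 38 adhesion genes, of 7 lists of partner genes and of fibroblast and stem cell markers, 1 point per gene, with bars at the list medians and a dotted line at the median of all genes (0.04). Integrin ligands (median -0.48) reach toward the fibroblast markers (-2.91), while the adhesion genes (-0.07) spread to both sides.

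Of the 5 measured genes of epithelial-mesenchymal transition, Zeb2 and Vim fell and 3 did not pass, where 7.34% of all genes fell. Vimentin (Vim), the intermediate filament of mesenchymal cells that fibroblasts carry too, went from 10398 and 6970 units to 4692, 3914, 3990 and 2880 (log2 -1.16, adjusted p = 0.0184), a call lost without KO line 2 (0.0582) or KO line 3 (0.0556). Epcam, an epithelial adhesion protein of stem cells chosen after its values were seen, lay at 365 and 496 units in WT against 258 to 526 in KO (-0.32, adjusted p = 0.474). Few of the markers listed for other cell types were measured, and which cells their RNA came from was not tested. Of 8 endothelial and blood markers 4 were measured and 2 rose (Pecam1 and Vwf), where 9.75% of all genes rose. The other 2, Tek and Cd34, chosen after their values were seen, did not pass (log2 0.16 and -0.38, adjusted p = 0.662 and 0.353). Of 8 trophoblast markers 3 were measured and 2 rose (Tfap2c and Ascl2). Of 8 primitive endoderm markers 2 were measured and none was called in limma (0 with an unadjusted p below 0.05). Summed trophoblast levels were 740 and 966 units in WT and 1264 to 1892 in KO, of which Tfap2c held 449 and 496 in WT and 816 to 1532 in KO. Ascl2 reached 80 units, and so entered the table, only in KO. Eomes, the other measured trophoblast marker, chosen after its values were seen, lay at 256 and 469 units in WT against 196 to 312 in KO (log2 -0.45, adjusted p = 0.288). Trophoblast expresses Cdh3, and the part of these markers in the rise of Cdh3 was not tested. Of the 4 risen markers, Pecam1 was called whichever library was omitted. Tfap2c was lost without KO line 2 (0.0565) or KO line 3 (0.0539). Vwf and Ascl2 were lost without any of the KO lines (up to 0.107 and 0.0892).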

How the data were processed

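Total RNA was taken with TRIzol, per the labels. RSEM 1.2.17, Bowtie2 2.2.0 and build mm10 stand in the submitters' processing notes, without roles. The annotation and the normalization used are not given in the sources here. The authors deposited a table whose name says CPM. Its values are whole numbers that sum to 14612799 to 14722877 in each library and share their highest value, 78894, so they were taken as a deposited normalized score. Sequencing depth cannot be read from them, and counting error is therefore not stated. The labels give 2 WT and 4 KO libraries, where the design text speaks of triplicates. Since no label says that the WT libraries came from separate cultures, a p-value here covers only the spread between these samples, which may be technical.

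Values were divided by 14.7 (the mean library total over 1000000), 1 was added and log2 taken, as a log-scale test planned for normalized values. Genes needed a scaled value of 1 in 2 libraries, which removed none. KO was compared with WT over all genes in limma 3.58.1 (R 4.3.3), with moderated variances that follow a trend on mean level, 4 residual degrees of freedom before moderation, two-sided tests and Benjamini-Hochberg adjustment. The script was tested on simulated data. Positions and lengths came from GENCODE M21 for 10941 genes.

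Members, lists (7 of partner genes, 5 of cell type markers, 2 of members by tissue) and tests were chosen with earlier results of these data known. Genes named by rule are the called members, the most abundant of each family, the 3 uncalled ones with the smallest p, Cdh1, Cdh2, Ddx5 and up to 3 called genes per partner list. Other members complete a family, and other genes are said to be chosen after their values were seen. Alternatives were trimmed-mean scaling, quantile normalization, other pseudocounts and filters, limma without trend, limma with the spread set by group, chromosome-median centring, the replicate number as a block, and each library left out. The split by chromosome 8 level was added after the data were seen.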

Additional observations from a re-analysis of the deposited data

Results flagged for a closer look

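Among the 38 genes, 1 value stood apart from the other KO lines. Pcdhgc4 in KO line 3 was at 1172 units, against 1088 to 1099 in the other 3 lines. The gap takes 0.869 of the range of the 4 lines, above Dixon's critical value for a group of 4. By chance about 1 group in 20 is marked this way.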

How the results depend on the processing

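Of the 38 genes, 4 were higher and 3 lower with all libraries. Quantile normalization gave 2 higher and 5 lower, a scaled value of at least 10 in 2 libraries 2 higher of 23 tested, and chromosome-median centring 5 lower. Limma with the spread set by group called 0 higher and 0 lower (8 with an unadjusted p below 0.05), where 1.77% of all genes were called. Leaving out 1 library gave 0 to 7 higher (0 without KO line 2 or 3, 7 without WT replicate 1) and 0 to 4 lower (0 without KO line 3, 4 without WT replicate 2), where 4.3% to 30.1% of all genes were called. The trimmed mean, other pseudocounts, no filter and limma without trend stayed within 1.5 times both counts. None of these alternatives turned the sign of a called gene.

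With the replicate number as a block, 0 members were higher and 0 lower (9 with an unadjusted p below 0.05), and 20 of all genes were called (0.182%). The labels tie WT replicates to KO lines by nothing but this number, while WT replicate 1 and KO line 1 both had the lower level of chromosome 8. Deviations of the same number had a correlation of 0.145 for number 1 and 0.097 for number 2. Under the block 4 uncalled genes changed sign: Itga5 (-0.041), Itgav (0.036), Itgb5 (0.12) and Itgb3bp (0.00352). Cldn3 did so with quantile normalization (-0.058).

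With single libraries left out, 12 uncalled genes changed sign. Their log2 changes ran from -1.04 to 0.23 (Cdh2), -0.068 to 3.21 (Cdh18), -0.22 to 0.052 (Cldn4), -0.10 to 0.54 (Cldn3), -0.13 to 0.016 (Itgav), -0.79 to 0.75 (Itgal), -0.38 to 0.024 (Itgb5), -0.082 to 0.28 (Itgb4), -0.24 to 0.11 (Itgb3bp), -1.97 to 1.59 (Itgbl1), -0.19 to 0.011 (Pvrl1) and -2.19 to 1.15 (Pcdh9). Depth is unknown, so the precision of low values (20 of the 38 genes have a mean under 200 units) cannot be given.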
